A study of Drosophila melanogaster with 3 samples.

Results

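Genes of the GATA network of Drosophila melanogaster were followed in a map of where the transcription factor crp sits on chromatin: the cofactor gene ush and the GATA factor genes pnr, srp, grn, GATAe and GATAd. They are 6 of the 13968 protein-coding genes of the 7 chromosome arms and were taken by name, with gene models of Ensembl on the dm6 build. The chromatin came from whole embryos of both sexes, aged 0 to 24 h, of 1 transgenic line whose crp protein carries GFP at its C terminus, and was precipitated through the GFP. There were 3 biological replicates and no other group, a control library was not analysed here, and the sources used here do not say if the GFP-tagged crp replaced the native gene or was added to it. The embryos hold all tissues and stages of the first day, so the binding seen is an average over cells in which these genes are on and cells in which they are off.

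GATA factors are zinc finger proteins that bind short sites around the letters GATA and set the fate of blood, gut, heart and dorsal ectoderm. The product of ush, the fly member of the Friend of GATA family, does not act through a DNA site of its own but binds a zinc finger of its GATA partner and changes what that partner does to its target genes. In flies it restrains pnr in the dorsal ectoderm and the bristle fields of the thorax, and it works with srp in blood cells. The products of srp and GATAe specify the embryonic gut, srp is also needed for blood and fat body, and grn acts in the posterior spiracles and the nervous system. crp is the fly AP-4, a basic helix-loop-helix factor, and AP-4 proteins bind the E-box CAGCTG, a palindrome that reads the same on both strands.

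The data were lists of peaks. Each peak has a summit, the base where its signal is highest, and a signal value of the authors' peak caller, given here as relative signal, the multiple of the median over the 5460 strongest peaks of the same list. The 5460 peaks that passed the authors' threshold on the irreproducible discovery rate (IDR list) were the 5460 strongest of the 28145 peaks of the pooled list. The replicate lists held 30000, 28713 and 30000 peaks, and the depth of sequencing behind them is unknown. The pooled list is labelled as peaks and background for input to the IDR step. Its entries below the IDR threshold, called peaks or summits here, may therefore be background and are not shown to be crp binding. The same may hold for the weak entries of the replicate lists. The genes were selected on the number, signal, E-box content and replicate matches of their summits in earlier results of these data, so these measures are described without a test and read against the same values over all genes or all summits.

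ush held many IDR summits, and the GATA factor genes held none from first to last base. The same was true of 11938 of the 13968 protein-coding genes, so holding none there was common. Within the gene body and 5 kb on either side, ush held 14 IDR summits, pnr, srp, grn and GATAe held 0, and GATAd held 3, all beyond its 3′ end at the starts of other genes. Of all protein-coding genes 58.8% held at least 1 IDR summit in this window, so 0 was a common value. In lists of summits shared by a pair of replicates, which are shorter than the IDR list, ush held 8 without replicate 1 and 9 without replicate 2 or 3. A count as high as that of ush was rare, at 0.0358% of genes, which is 5 genes. Within 500 bp of an annotated start site, the distance taken here as the promoter, ush had 2 IDR summits and no GATA factor gene had any at its 12 start sites in all. That is 1 of 6 genes, against 33.3% of all genes.

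The sequences at the strongest summits in the ush and GATAd windows, and at the second summit past the end of ush, show where the AP-4 E-box lay. All are plus-strand bases from the RefSeq copy of dm6. Capitals mark CAGCTG and the GATA site on either strand, the latter spelled AGATAA or TGATAA with a last A, and AGATAG or TGATAG with a last G. Where the bases around a summit are annotated as UTR, only the 30 bases around the CAGCTG nearest to the summit are given.
ush, past the 3′ end, chr2L:540741-540770: catcAGATAGatCAGCTGatcgttggtagc
ush, before the internal start, chr2L:490337-490366: aaagcctattgcCAGCTGctgtagtcaaaa
ush, between the last starts, chr2L:523588-523617: atcaacaaacatCAGCTGtgctgcgtcgtc
ush, second summit past the 3′ end, chr2L:540921-540950: aaataataaattCAGCTGtcagtatgccgg
GATAd window, at Sps2, chr2L:10342597-10342626: gtCAGCTGatatCAGCTGatctttgcctta

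The third strongest summit of ush, in an intron, is shown as 151 bases with the summit at its middle base, because it was strong without a CAGCTG.
ush, first intron, chr2L:481005-481155: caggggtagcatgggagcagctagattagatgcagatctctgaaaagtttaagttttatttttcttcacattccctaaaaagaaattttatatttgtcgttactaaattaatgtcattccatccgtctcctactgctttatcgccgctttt

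The strongest pooled summit of each GATA factor gene below the IDR threshold is printed in the same way, 151 bases long, because it carried the highest such signal at its gene. Capitals mark the same sites.
pnr, chr3R:16041885-16042035: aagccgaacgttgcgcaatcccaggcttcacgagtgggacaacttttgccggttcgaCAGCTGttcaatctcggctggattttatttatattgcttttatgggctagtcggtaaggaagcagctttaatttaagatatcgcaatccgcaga
srp, chr3R:15984447-15984597: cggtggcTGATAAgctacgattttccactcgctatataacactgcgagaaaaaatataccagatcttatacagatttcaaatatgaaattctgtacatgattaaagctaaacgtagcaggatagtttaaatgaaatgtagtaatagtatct
grn, chr3R:8180480-8180630: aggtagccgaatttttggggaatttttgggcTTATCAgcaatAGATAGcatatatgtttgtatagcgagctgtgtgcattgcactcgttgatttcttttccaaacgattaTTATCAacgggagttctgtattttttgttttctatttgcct
GATAe, shared with the window of srp, chr3R:16006077-16006227: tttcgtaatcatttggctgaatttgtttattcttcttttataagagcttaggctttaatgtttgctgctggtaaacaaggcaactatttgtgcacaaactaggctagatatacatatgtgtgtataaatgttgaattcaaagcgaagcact
GATAd, first kilobases of the gene, chr2L:10334937-10335087: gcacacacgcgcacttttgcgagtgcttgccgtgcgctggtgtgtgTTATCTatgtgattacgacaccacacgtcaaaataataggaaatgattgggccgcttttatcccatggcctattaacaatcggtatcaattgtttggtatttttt

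ush (FBgn0003963, chr2L:476220-540560, plus strand) is 64.3 kb long, and its 14 summits spread over 68.4 kb. They lay in 11 separate regions, with a median of 2747 bp between neighbours and a longest stretch of 20.2 kb without one. In the gene body there were 11, upstream of it 1, and past its 3′ end 2. By annotation 7 were in introns, 1 in an exon of the 5′ UTR, 4 within 500 bp of a start site of some gene and 2 in a 3′ UTR. Per length this was 0.188 summits per kb of window, against 0.0397 per kb over the 7 arms. The short window of GATAd was as dense, at 0.194 per kb, and in the pooled list GATAd had 0.647 per kb against 0.552 for ush.

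**Figure D1:**
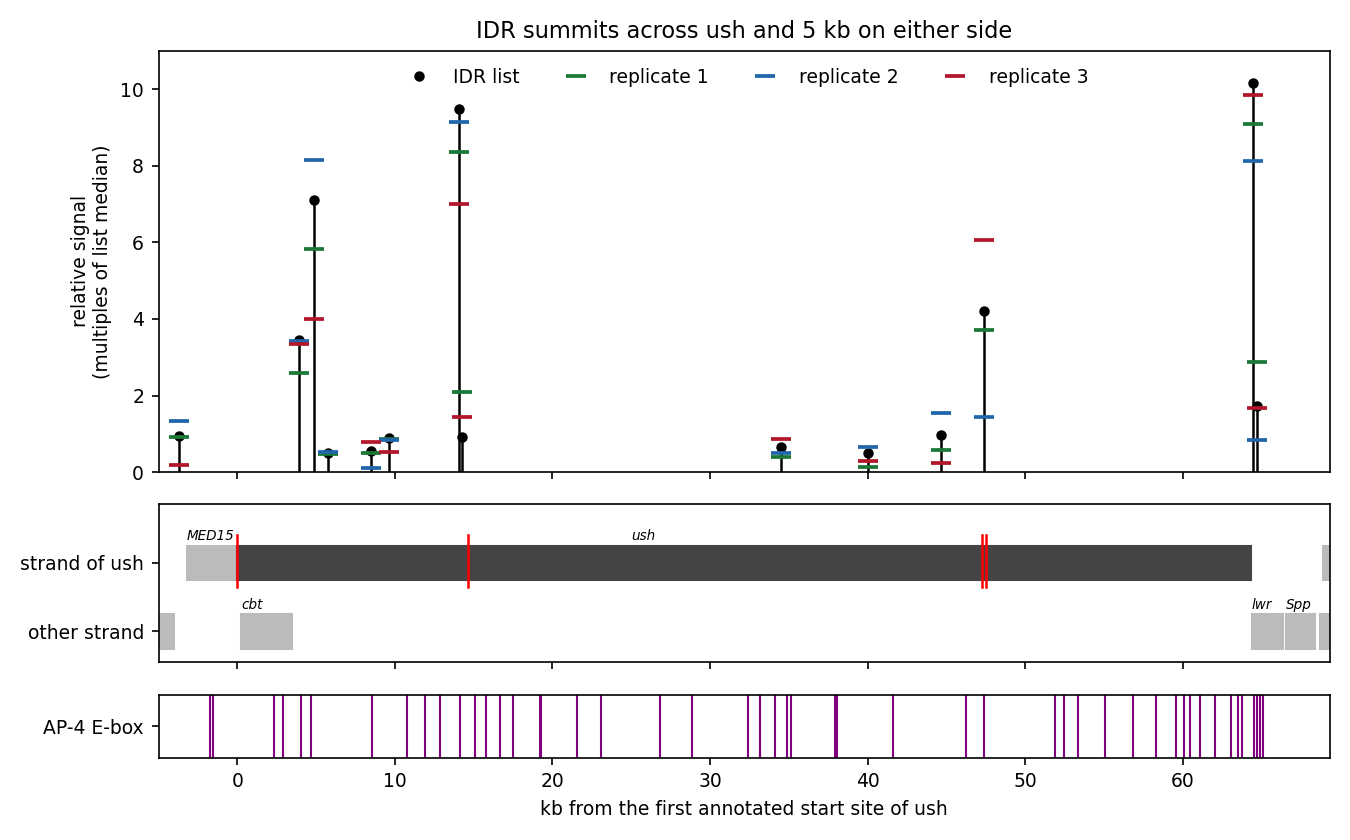
Relative signal of the 14 IDR summits across ush, in multiples of the list median, against distance in kb from its first start site; black points are the IDR list and coloured bars the matched summit of each replicate. The lower rows show genes on each strand (ush dark, its start sites red) and the AP-4 E-boxes, of which 51 lie in the window, 2 of them within 50 bp of a summit.

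The strongest of the 14 summits lay just past the end of the gene, at 540707, 147 bp beyond the last base of ush. Its relative signal was 9.10, 8.12 and 9.86 in replicates 1, 2 and 3 (mean 9.02 ± 0.872, SD, n = 3), and its rank in the IDR list was 482. All 3 replicates put it among their 525 strongest peaks. The place is inside the 3′ UTR of lwr, the gene of the SUMO-conjugating enzyme Ubc9, which runs toward ush on the other strand (chr2L:540599-542580) and starts 1873 bp away. A second summit 212 bp farther on, at 540919, had 2.87, 0.841 and 1.67.

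The second strongest lay in front of the internal start site of ush at 490835. The summit at 490300 was 535 bp upstream of that start, just outside the promoter window, with 8.36, 9.14 and 6.996 (mean 8.17 ± 1.09, SD, n = 3) and IDR rank 527. Replicate summits fell within 1 bp of it. The summit at 490504, 331 bp upstream and so just inside the window, was much weaker, with 2.10 in replicate 1, 1.43 in replicate 3 and no match within 100 bp in replicate 2. No list holds summits closer than 199 bp to each other, so the pairs 204 bp apart here and 212 bp apart past the 3′ end were near that limit, and their weaker partners are not known to be separate sites.

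The last pair of start sites of ush, at 523466 and 523736, had 1 summit between them. At 523605 the relative signal was 3.71, 1.43 and 6.05 (mean 3.73 ± 2.31, SD, n = 3), a spread wider than at the other strong summits, with replicate 2 low. The first start site of ush, at 476220, had no IDR summit within 500 bp; the nearest inside the gene was 3924 bp downstream.

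The long first part of the gene held 5 summits and another gene. cbt, which encodes a zinc finger factor of the TIEG type, lies there on the other strand (chr2L:476446-479688). The summit at 481080 had 5.82, 8.14 and 3.99 (mean 5.98 ± 2.08, SD, n = 3) and lay 1392 bp upstream of the start of cbt. That at 480144 had 2.58, 3.42 and 3.33 and lay 456 bp upstream of cbt, within its promoter window. Both were high in all replicates, and the start site of cbt was nearer to them than any of ush. The weaker summits at 481998, 484696 and 485867 had IDR ranks from 3039 to 5132.

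By nearest start site, 7 of the 14 summits went to ush, 4 to cbt, 2 to lwr and 1 to CG4297. The last, at 472486, lay 286 bp upstream of CG4297 and 3734 bp upstream of ush, with 0.913, 1.34 and 0.194. Which gene a summit acts on was not measured. The rest, in the introns at 510735, 516268 and 520858, had IDR ranks from 2791 to 5011. Of the 14 summits, 4 were among the strongest 1092 of the IDR list and 3 among the weakest 1092. The next IDR summit outside the window, at 470781, was 5439 bp upstream of ush and had a relative signal of 0.459.

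Few genes carried as many summits. Counts of 14 or more were found at atos (18), tara (17), crp itself (16), Raf (14) and ush, of which atos, tara and crp are named here because of their counts. ush was the longest of them, and atos the shortest at 21.5 kb. Among the 202 other genes at least as long as ush the median was 1 summit, the highest 12, and 67 had 0. Raf, the gene of the kinase downstream of Ras, was the single gene with the same count as ush. The highest relative signal in its window, taken in each replicate at whichever summit held it, was 7.46, 5.11 and 10.00, against 9.10, 9.14 and 9.86 for ush, where the value of replicate 2 is that of the summit at 490300 and the others are those at 540707. This is a Euclidean distance of 0.887 on the log2 scale over 3 replicates.

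**Figure D2:**
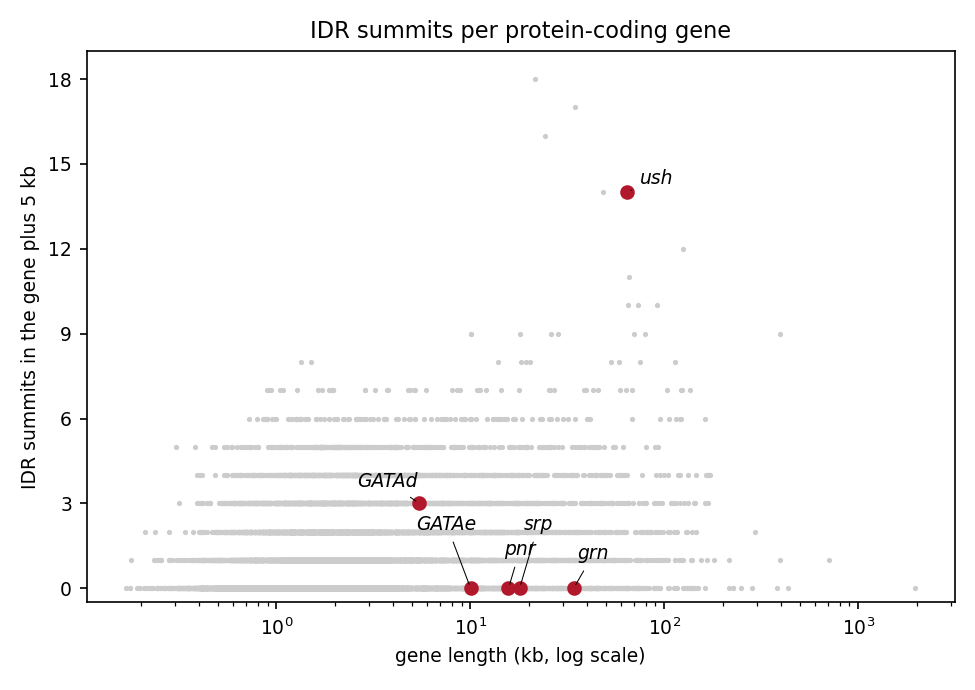
IDR summits in the gene body plus 5 kb against gene length in kb on a log axis, with 1 grey point per protein-coding gene and the 6 genes of the GATA network in red. ush lies at 14, above the 202 other genes at least as long, while 4 GATA factor genes lie at 0 and GATAd at 3.

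GATAd (FBgn0032223, chr2L:10333734-10339185, plus strand) had IDR summits only on its downstream side. The nearest, at 10339421, was 36 bp upstream of SamDC, an enzyme gene of polyamine synthesis. The next, at 10341619, was 3 bp inside CG31715. The strongest, at 10342662, was 40 bp upstream of a start site of Sps2, a selenophosphate synthetase gene, and had relative signals of 12.1, 10.3 and 15.7 (mean 12.7 ± 2.73, SD, n = 3), more than any summit of ush. The summit at SamDC had 1.06 and 1.18 in replicates 1 and 3 and no match in replicate 2. The first summit beyond the window, at 10344358 and 5173 bp past the gene, was also at another start, 84 bp upstream of Frmd5.

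At its own start GATAd had only entries of low signal below the IDR threshold, which may be background. The pooled summit at 10333690, 44 bp upstream of the first start site, had a relative signal of 0.305 and rank 7590, against 0.456 for the weakest IDR peak. The strongest pooled peak of the gene outside the IDR list, 1098 bp downstream of the second start site, had 0.409. Replicate 1 alone placed peaks of the gene body or start among its 5460 strongest, 4 of them with relative signals from 0.485 to 0.693. Replicate 2 had 0 peaks of any strength in the gene body.

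srp (FBgn0003507, chr3R:15986152-16004085), GATAe (FBgn0038391, chr3R:16009105-16019133) and pnr (FBgn0003117, chr3R:16026079-16041796) follow one another on the plus strand, and no IDR summit lay among them. The window of srp held 10 pooled summits with relative signals from 0.0877 to 0.330, that of GATAe 7, from 0.0877 to 0.242, and 5 of these were the same summits between the genes. That of pnr held 1, at 0.105. The only peak of these genes among the strongest 5460 of a replicate was in replicate 2, 1522 bp upstream of srp, with rank 5374 and relative signal 0.455. The matches within 100 bp of it in replicates 1 and 3 had no place among their strongest.

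grn (FBgn0001138, chr3R:8147368-8181444, minus strand) had 11 pooled summits, all in the gene body and none in the IDR list, with relative signals from 0.0835 to 0.220. Its strongest pooled summit was 889 bp downstream of the start site and had 0.169, 0.159 and 0.285. Within 500 bp of the start site peaks were found in replicate 3 only, the stronger with rank 6200 and relative signal 0.366. Within 500 bp of a start site the pooled list had summits at GATAe, GATAd and ush, 3 of the 6 genes, against 57.2% of all genes.

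**Figure D3:**
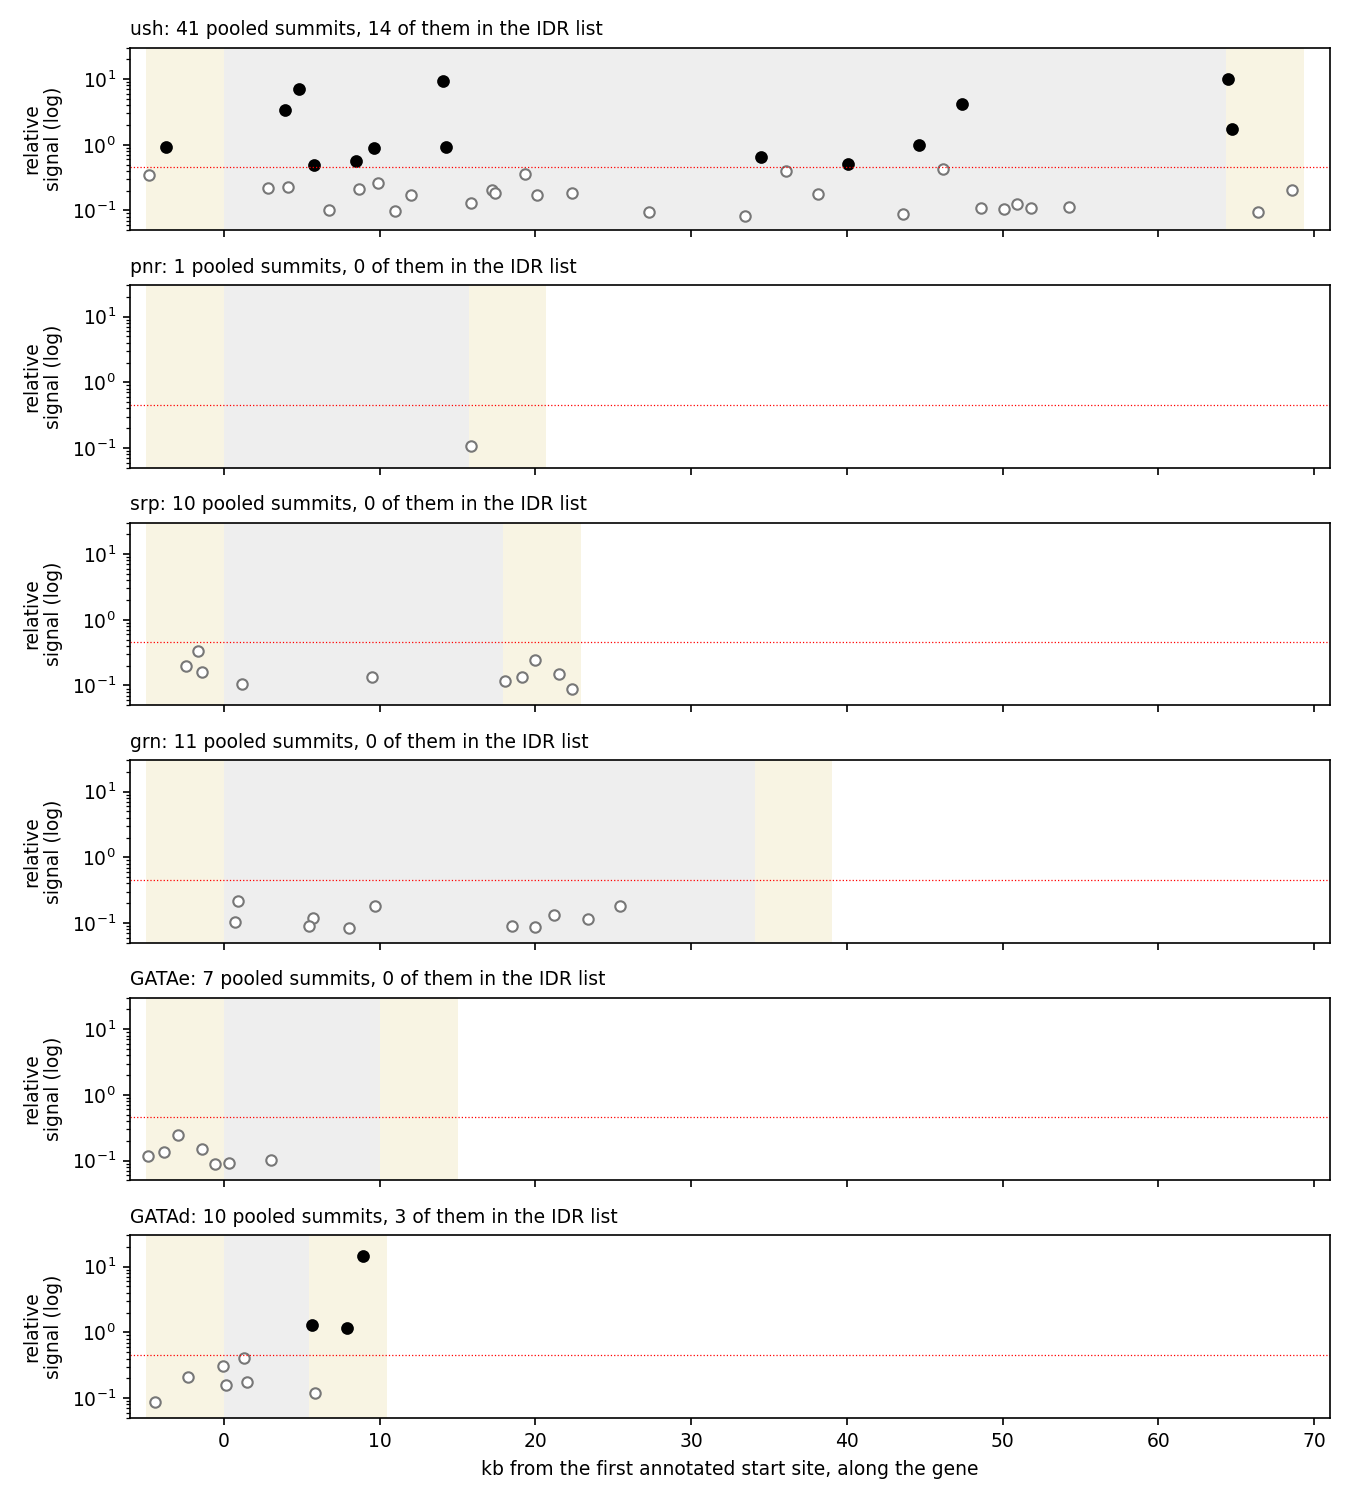
Relative signal on a log axis of every pooled summit of the 6 genes, against distance in kb along each gene from its first start site, all on the same scales; filled points are in the IDR list, open ones are not, and the dotted line is the weakest IDR peak at 0.456. Grey marks the gene body and yellow the 5 kb on either side; no filled point lies at pnr, srp, grn or GATAe, and those of GATAd lie past the gene.

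The number of summits at ush was the highest of the 6 genes in every replicate. Full lists had 48, 39 and 52 summits in the ush window (46.3 ± 6.66, SD, n = 3), against 8, 8 and 15 for srp, 4, 16 and 14 for grn, 5, 4 and 9 for GATAe, 17, 2 and 12 for GATAd and 1, 4 and 1 for pnr. The lowest of these counts for ush lay above the highest of any GATA factor gene. The windows differ in length, however, from 74.3 kb for ush to 15.5 kb for GATAd. Per kb of window the order of these 2 genes turned in replicates 1 and 3 but not in replicate 2. GATAd had 1.1, 0.129 and 0.777 summits in replicates 1, 2 and 3 against 0.646, 0.525 and 0.699 for ush. Among the 5460 strongest peaks of each replicate ush had 14, 18 and 13 (15.0 ± 2.65, SD, n = 3), GATAd 8, 2 and 4, srp 0, 1 and 0, and pnr, grn and GATAe 0 in each. At promoters this left ush in all 3 replicates and GATAd in replicate 1, against 30.3%, 31.7% and 32.1% of all genes in replicates 1, 2 and 3.

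The summits of ush recurred between replicates about as often as other IDR summits. A match within 100 bp among the strongest peaks of all 3 replicates was found for 7 of 14 (exact Clopper-Pearson interval 23.0 to 77.0%, counting error only), against 53.2% of all IDR summits. In the full lists it was 12 of 14 (57.2 to 98.2%), against 81.4%. The IDR list was drawn from the same replicates, so both shares are in part built in. Of the 3 summits in the GATAd window, those at CG31715 and Sps2 matched the strongest peaks of all 3 replicates. Of the 31 pooled summits of the GATA genes outside the IDR list, 2 were matched in each of the 3 full replicate lists, against 9.11% of all such pooled summits, and 7 had none.

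**Figure D4:**
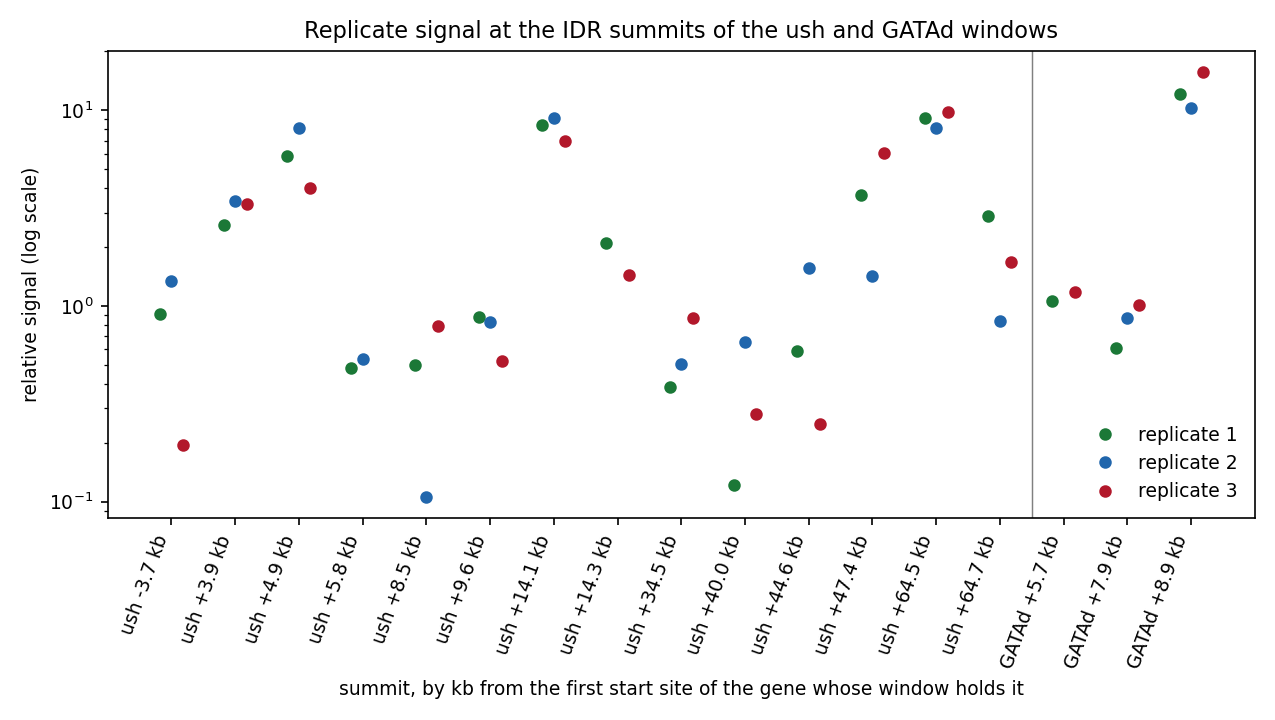
Relative signal on a log axis in replicates 1 (green), 2 (blue) and 3 (red) at the 14 IDR summits of the ush window and the 3 of the GATAd window, named by kb from the first start site; a missing point means no match within 100 bp. From the lowest to the highest replicate, the strongest summits of ush at 64.5 and 14.1 kb differ 1.21-fold and 1.31-fold, but the strong one at 47.4 kb differs 4.23-fold; those with an IDR signal below the list median range from 1.67-fold at 9.6 kb to 7.45-fold at 8.5 kb where all 3 replicates have a match.

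The AP-4 E-box lay within 50 bp of few of the summits of ush, but within 100 bp of more. CAGCTG lay whole within 50 bp of 2 of the 14 (1.78 to 42.8%), against 28.6% of all IDR summits and 4.63% of flanks of the same length 500 bp away. These were the summit at 523605, with a site centred 2.5 bp away, and that at 540919, with one at 16.5 bp. The 3 strongest had none. Among the 4 in the strongest 1092 of the list, 1 had the site, where 62.1% of those 1092 did. None of the 3 summits in the GATAd window had one, and 11 of the 14 at ush had no E-box of any kind, CANNTG, within 50 bp. The other 3 had one, against 55.6% of all IDR summits.

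The count turned on the width of the window. At 540707 the centre of the nearest CAGCTG was 48.5 bp from the summit, so that its last base fell outside, and at 490300 it was 51.5 bp away, which is why their printed bases lie to one side of the summit. The summit at Sps2 had its nearest at 50.5 bp, one of the pair of copies printed. Within 100 bp the site was found at 6 of 14 summits of ush (17.7 to 71.1%), against 37.6% of all IDR summits, and at 3 of the 4 strongest, against 79.8% of the strongest 1092. The summit at 481080 kept none, with the nearest 176.5 bp away.

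E-boxes were present at all 6 genes, with or without IDR summits. The ush window held 51 copies of CAGCTG, 0.686 per kb, more than the 0.453 per kb of the 7 arms; grn had 24 (0.545 per kb), srp 9, GATAe 7, GATAd 6 and pnr 5. An IDR summit lay within 50 bp of 2 of the 51 at ush and of 0 at the GATA factor genes, against 2.79% of all copies on the arms. For pooled summits it was 3 at ush, 2 at grn, 1 at pnr and 0 at the others, against 5.76%. The copy at pnr is the one in the printed sequence, in the intergenic stretch past the gene, at a summit of rank 19149. None of the 12 start sites of the GATA factor genes had a copy within 500 bp; the closest was 503.5 bp from the second start site of GATAe. At ush the starts at 490835, 523466 and 523736 had one at 469.5, 136.5 and 133.5 bp. The first start of ush had its nearest at 1515.5 bp. The share of all start sites with a copy within 500 bp was not counted, so these distances have no genome-wide value beside them.

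GATA sites, which GATA factors bind, were also looked for at the summits. One of the 4 forms lay within 50 bp of 4 of the 14 summits of ush (8.39 to 58.1%), against 18.2% of all IDR summits and 15.4% of flanks. They were at 484696, with a pair of sites, 520858, 523605 and 540707. In the GATAd window the summit at Sps2 had one. The strongest pooled summit of grn had 3, as printed. A match of letters is not a measured site, and GATA factor binding was not measured here. The DNA replication-related element TATCGATA was at 0 of the 14 summits of ush and at that of Sps2, against 5.90% of all IDR summits.

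Promoter summits were also counted at other genes that work with this network. Of 38 genes in 5 lists, 10 had a promoter summit in the IDR list, 26.3% against 33.3%. Among partners and cofactors it was 4 of 15 (CtBP, ap, Bx and tin), among chromatin proteins with a GATA-type finger or in the same complexes 4 of 5 (MTA1-like, simj, Gug and Mi-2), among dorsal and bristle genes 0 of 8, among blood and fat body genes 1 of 6 (crq) and among gut genes 1 of 4 (fkh). The strongest was crq, the gene of a scavenger receptor of blood cells, with 16.2, 15.9 and 19.9 (mean 17.3 ± 2.24, SD, n = 3) and a CAGCTG within 50 bp of the summit, which lay 16 bp upstream of its start. MTA1-like, a subunit of the NuRD chromatin complex, had 2.46, 4.17 and 3.62, and ap, a LIM homeodomain factor, 1.46, 1.64 and 3.58, each with the site. Mi-2, the ATPase of NuRD, had 2.02, 2.98 and 2.58 at a summit nearer to the start of Su(Tpl). The promoter summit of CtBP, with an IDR list signal of 0.486, was likewise nearer to the start of another gene, CG8031. In the gene body plus 5 kb, 23 of the 38 genes had an IDR summit, 60.5% against 58.8% of all genes. By list this was 10 of 15 partners and cofactors, 5 of 5 chromatin genes, 1 of 8 dorsal and bristle genes, 5 of 6 blood and fat body genes and 2 of 4 gut genes. The 1 dorsal gene was dpp, which encodes a BMP ligand.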

How the data were processed

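Peak lists of 3 biological replicates, of their pool and of peaks past an IDR threshold were deposited by the authors in narrowPeak layout on dm6, per the file notes. The signal of each peak, on the authors' scale, was deposited with it and is not comparable between lists, so it was divided by the median of the 5460 strongest peaks of its list. The sources used here do not name the aligner, peak caller, threshold or depth; lists on dm3 were not used. Summits were the peak start plus the deposited offset. Gene models were of Ensembl release 115, sequence of the RefSeq copy of the assembly, and coordinates count from 1. Distances were 500 bp for promoters, 5 kb around genes, 100 bp for matches between lists and 50 bp for sites; flanks used seed 1. Intervals are exact at 95%, take the summits of ush as independent and serve as no test. The 6 genes, the lists and the measures were chosen with earlier results of these data known. Named by rule were the 6 genes and genes with the start nearest to an IDR summit in their windows. The rule also took up to 4 related genes with the strongest promoter summit. It further took up to 5 genes most like ush by summit count and relative signal. Other genes were named beyond this rule, among them the other related genes with a promoter summit and dpp. Python 3.11.15, numpy 2.4.6, scipy 1.17.1, pandas 2.3.3 and matplotlib 3.10.9 were used. Counting, matching and site finding were tested on simulated data.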

Additional observations from a re-analysis of the deposited data

How the results depend on the processing

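Of 54 alternative settings 35 left a value within 1.5 times the reported count, or within 1 SD of the relative signal. The 14 IDR summits of ush fell to 3 in the 1000 strongest IDR peaks and rose to 41 in the pooled list; in lists shared by a pair of replicates, which hold 3377 to 3938 summits in place of 5460, there were 8 to 9, the lowest without replicate 1. The 3 at the GATA genes became 0 with the gene body only, 1 with 2 kb on either side, 1 in the 1000 strongest and 34 in the pooled list, and 2 to 4 without 1 replicate. Genes with a promoter summit numbered 0 in the 1000 strongest peaks and 3 in the pooled list, against 1. With the site within 100 bp, ush summits with CAGCTG were 6 and those of the GATA windows 1, and with any E-box the latter were 1; without 1 replicate they were 0 to 1. Matches of ush summits in all 3 replicates rose from 7 to 12 in the full lists. The relative signal of the strongest ush summit, 9.02, was 1.05 on the median of the 1000 strongest peaks and 0.176 of the highest signal, by change of scale. RefSeq gene models gave the same counts of summits. No paired analysis was possible because the series holds 1 group. Depth is unknown, so a missing summit at a GATA gene shows that none passed the threshold and not that crp was absent.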

Other observations

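The GATA factor genes outside GATAd lay in long stretches without an IDR summit. srp, GATAe and pnr shared one of 120 kb on 3R, from 15974432 to 16094496, with 11 genes in it, and grn lay in one of 91.3 kb, from 8126596 to 8217942, with 3. The median distance between neighbouring IDR summits was 6.58 kb, and 3.70% and 5.61% of such distances were at least as long. Long stretches hold many genes: 18.4% of protein-coding genes lay whole in stretches of 120 kb or more and 24.0% in those of 91.3 kb or more. These stretches were looked up after the counts at the genes were seen, and no test was made of them.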
